A study of Mus musculus with 4 samples.

Results

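The serpins and the murinoglobulin and alpha-macroglobulin genes are the liver's main protease inhibitors, and they were measured here in livers with and without NIPP1, a nuclear regulatory subunit of protein phosphatase 1 encoded by Ppp1r8. They were taken as every array probe that is no control and carries a Serpin gene symbol or the symbol Mug1, Mug2, A2m or Pzp. This gave 82 of the 39429 probes, for 65 of the 30175 gene names on the array. The alpha-2-macroglobulin (A2M) family had 4 genes, clade A had 24 and clade B had 27. Clades C, D, G and H had 1 gene each, and clades E, F and I had 2 each.

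RNA was prepared from whole livers of 8 males aged 2 months, all untreated and of mixed strain. In 4 of them NIPP1 was conditionally knocked out in the liver, and 4 were controls. Each of 4 two-colour Agilent arrays compared 1 knockout mouse with 1 control mouse, and the array replicates are numbered 1 to 4. On replicates 1 and 2 the knockout mouse was labelled with Cy3, on replicates 3 and 4 with Cy5. The sources used here do not name the Cre line, the deleted exons or the exact genotype of the controls. The dye orientations held different mice, so a difference between the 2 orientations may belong to the dyes or to the mice, and these cannot be told apart. In whole liver RNA, fewer cells of a type and less RNA per cell cannot be told apart either.

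A serpin presents a reactive loop as bait. When the target protease cuts the loop, the serpin changes shape and traps the enzyme in a covalent complex. Members of the A2M family work differently, since cleavage of their bait region exposes a thioester and closes the inhibitor around the protease. Hepatocytes secrete most clade A serpins and most A2M family proteins of the plasma, rodents have expanded the alpha-1-antitrypsin and antichymotrypsin genes into clusters, and clade B serpins act mainly inside cells.

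Values are log2 knockout over control on each array, after background correction with an offset of 50 and loess normalization. Levels of single mice are the normalized log2 intensities of their dye channel. Tested were probes that exceeded the local background clearly, by the scanner software's call (well above background), in 3 or more of the 4 mice of a genotype. The fitted value averages the dye orientations, and its error is the standard error (SE) of limma's fit (n = 4 arrays), which leaves out any difference between the orientations. P-values were adjusted by Benjamini-Hochberg over all 20830 tested probes. Positions of probes are mm9 coordinates from the array files.

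Ppp1r8 itself gave log2 ratios of -0.60, -0.73, -0.74 and -0.63 on replicates 1 to 4 at its probe on chromosome 4, 132383193 to 132383252, and -0.66, -0.59, -0.59 and -0.75 at a second probe. The fitted values were -0.68 ± 0.05 and -0.65 ± 0.05, each at an adjusted p of 0.0522 in limma. With the scanner software's processed signals they were -1.33 and -1.22. The share of spots well above background was 52.7% to 56.3%. The arrays differed from each other across all tested probes, with correlations between 0.53 for replicates 3 and 4 and -0.25 for replicates 1 and 4.

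Of the 82 probes, 47 were tested, for 36 genes, and all 47 were well above background in all 8 mice. The other 35 probes were not tested, and 29 genes had no tested probe. A single probe, that of Serpina7, was called higher in the knockout at an adjusted p under 0.05, where 0.12% of all tested probes were called higher. By limma 0 were called lower, where 0.0528% of all tested probes were. At an unadjusted p under 0.05 there were 3 higher and 11 lower, beside 12.9% and 10.3% of all tested probes. These counts include several probes of the same gene. With 1 probe per gene they were 2 and 7, beside 3682 of all 16176 probes in both directions together. A fit of the separate dye channels called 1 higher and 5 lower at an adjusted p under 0.05, beside 10.0% and 7.56% of all probes in that fit. At an adjusted p under 0.1 the counts were 1 higher and 7 lower, beside 4.05% and 2.68% of all tested probes. The 7 include 2 near-copy probes of Serpina4-ps1 and 2 probes labelled Serpina3f. With 1 probe per gene, 1 was higher and 5 lower, beside 572 and 334 of all 16176 probes in that fit. All 4 arrays had the same sign at 1 probe above 0 and at 9 below 0, beside 13.4% and 11.1% of all tested probes, and 3 of these 9 are Serpinb6a and Serpinb6c probes that are near copies of each other. Of the 47 fitted values 17 lay above 0 and 30 below, with a median of -0.08, whereas 10406 of all tested probes lay above 0 and 10424 below. At 30 of the 47 probes the fitted value lay within 0.25 of 0.

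**Figure D1:**
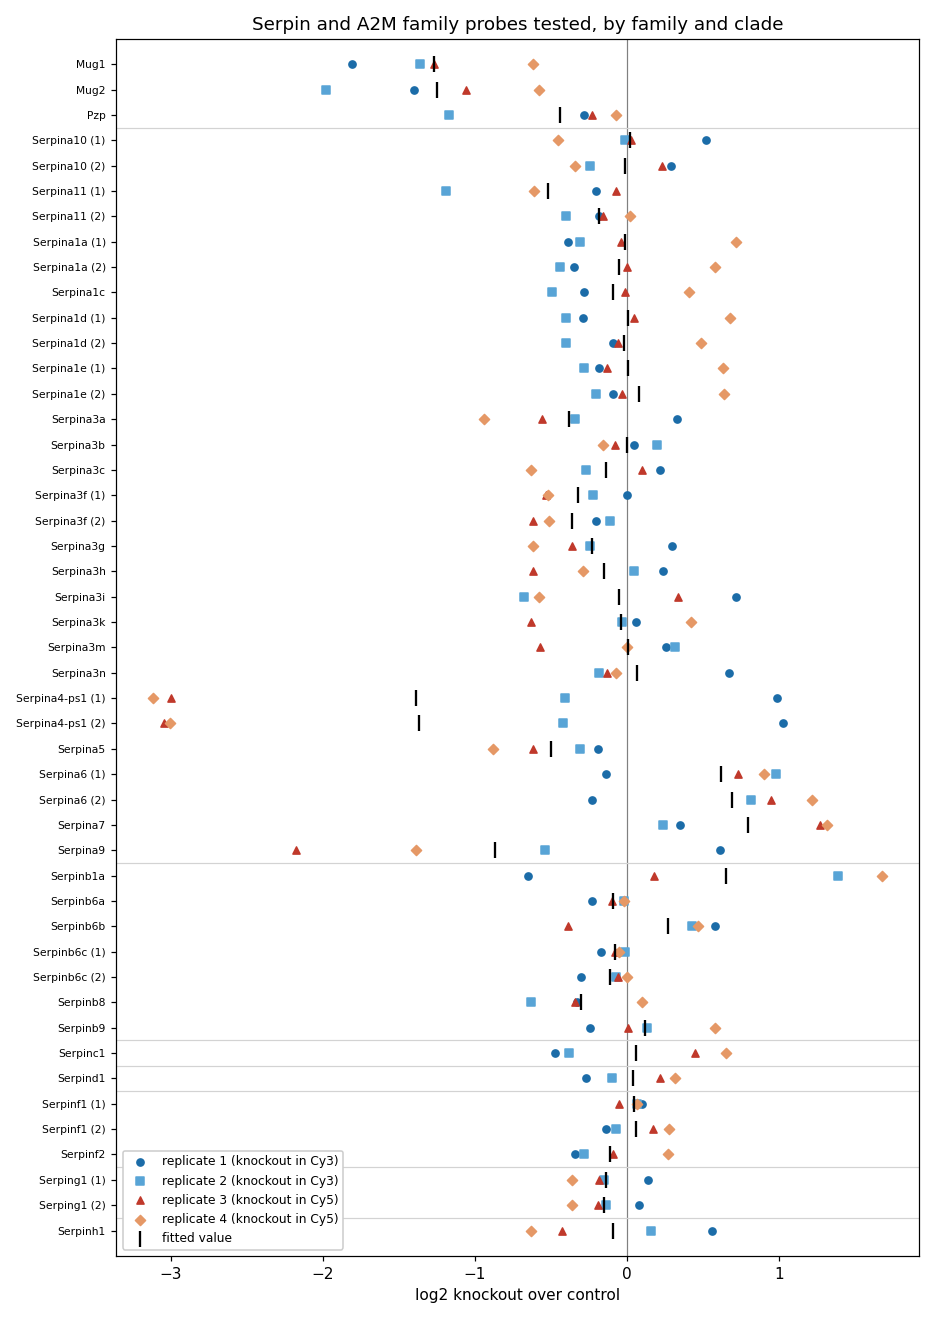
Log2 knockout over control of the 47 tested probes on each of the 4 arrays, grouped by family and clade, with the fitted value as a vertical bar and numbers in brackets for the probes of one gene. Mug1 and Mug2 lie below 0 on every array, Serpina7 lies above 0 on every array, and both Serpina4-ps1 probes lie near -3 on replicates 3 and 4 but near 1 on replicate 1.

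The murinoglobulins had the lowest fitted values outside the pseudogene Serpina4-ps1. Mug1 and Mug2 encode single-chain inhibitors of the A2M family, abundant in mouse plasma, and their genes are neighbours on chromosome 6. The sequences upstream of their starts are shown because both genes had lower signal in all knockout mice. They are given 5′ to 3′ on the plus strand for chr6:121838391-121838540 (Mug1) and chr6:122006648-122006797 (Mug2) of GRCm38.p6, as RefSeq's gene starts place them, and the capitals mark the longest run that both share, 32 bases.
Mug1: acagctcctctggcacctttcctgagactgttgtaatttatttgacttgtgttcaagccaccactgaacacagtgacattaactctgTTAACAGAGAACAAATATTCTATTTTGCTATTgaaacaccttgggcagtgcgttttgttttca
Mug2: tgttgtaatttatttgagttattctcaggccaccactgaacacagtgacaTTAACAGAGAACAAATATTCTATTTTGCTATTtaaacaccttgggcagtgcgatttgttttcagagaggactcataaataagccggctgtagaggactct
The run ended 31 bases before the annotated start of Mug1 and 68 bases before that of Mug2. The motif GTTAAT, part of the site of the hepatocyte factor HNF1, was searched on both strands in the 300 bases that RefSeq's table gives around each start. It occurred for Mug1, Mug2, Pzp and Serpina7 and not for Serpina5. It was present in 7.1% of all 32851 promoter entries and in 23.0% of the 61 entries of 52 of the 65 genes. These entries come from related genes, some with several entries and some untested here, so they are not independent. No comparison with promoters of other liver genes was made. The motif TTGCNNAA of CCAAT enhancer binding proteins was in 10.8% of all entries and 26.2% of these 61, among them Serpina5 and Serpina7. The STAT motif TTCNNNGAA was in 8.3% of all entries and 18.0% of these, the HNF4 motif AGTCCA in 14.1% and 11.5%, and the FOX motif TGTTTAC in 3.65% of all entries and 0 of these. None of these 3 was found for Mug1, Mug2, Pzp, Serpina5 or Serpina7.

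Mug1 (probe at chromosome 6, 121838943 to 121839002) had levels of 17.29, 17.21, 17.54 and 17.26 in control mice 1 to 4 and of 15.48, 15.85, 16.27 and 16.63 in knockout mice 1 to 4. Every knockout mouse lay below every control mouse. How many of all tested probes separate the genotypes in this way was not counted. The log2 ratios of -1.81, -1.36, -1.27 and -0.62 gave a fitted value of -1.27 ± 0.14, a 2.40-fold lower signal, at an adjusted p of 0.0556 in limma.

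Mug2 (122035900 to 122035959) had 16.40, 16.64, 16.62 and 16.31 in the controls and 15.00, 14.67, 15.56 and 15.73 in the knockouts, again without overlap. Its ratios were -1.40, -1.98, -1.06 and -0.58, and its fitted value was -1.25 ± 0.14 (adjusted p = 0.0550, limma). Replicate 4 had the smallest difference for both genes. Within one dye, the mean difference of knockout minus control mice was -1.73 in Cy3 and -0.80 in Cy5 for Mug1, and -1.63 and -0.87 for Mug2. The fitted values missed 0.05 narrowly, and with median centring in place of loess, with no filter on dim probes, with a trended and robust variance or with separate channels both genes passed it. The adjusted p over these and the other alternative settings with all 4 arrays ran from 0.00298 to 0.0794 for Mug1 and from 0.00228 to 0.103 for Mug2. The settings that both genes passed also called more probes over the whole array, 330, 504, 764 and 3658 against 36. With an array left out neither gene passed 0.05. The fitted values then ran from -1.43 to -1.1 for Mug1 and from -1.4 to -1.11 for Mug2. As oligonucleotides the probes of Mug1 and Mug2 are distinct, since their longest common run was 7 bases and 21 of 54 aligned bases were identical. Whether either probe also binds the other gene's transcript was not tested, so Mug1 and Mug2 may not be independent measurements. The accession of the Mug2 probe also names Mug-ps1, a murinoglobulin pseudogene, so signal from its transcript cannot be told apart.

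Pzp (128433631 to 128433690), which encodes the tetrameric alpha-macroglobulin of mouse plasma, also lay below 0 on all 4 arrays, with ratios of -0.28, -1.17, -0.23 and -0.07. The knockout levels of 15.67, 15.19, 15.91 and 16.04 overlapped the control levels of 15.95, 16.36, 16.15 and 16.11. The fitted value of -0.44 ± 0.16 did not pass (adjusted p = 0.213, limma), and it was -0.66 without replicate 1 and -0.21 without replicate 2. A2m, the counterpart of human alpha-2-macroglobulin, was not well above background in any of the 8 mice, so no ratio is given.

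**Figure D2:**
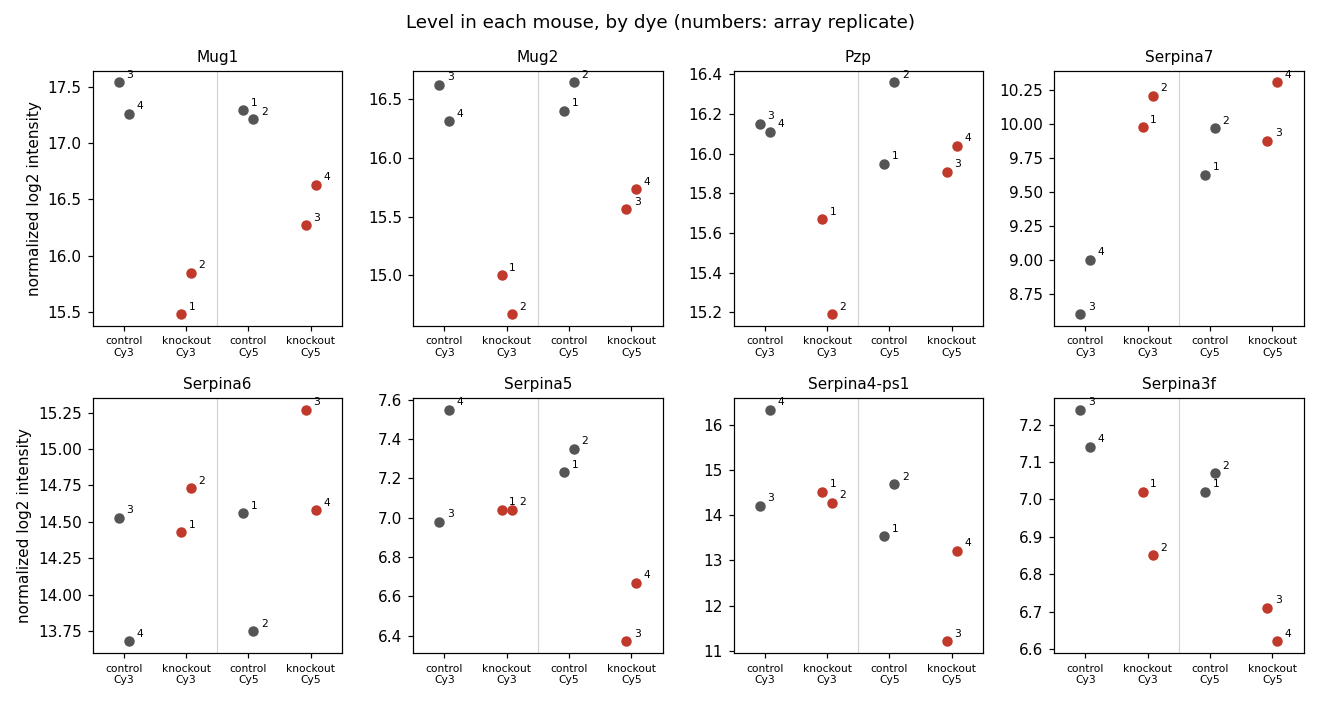
Normalized log2 intensity in each mouse for 8 genes, with control mice in grey and knockout mice in red, split by the dye of the mouse and numbered by array replicate. The vertical axes differ between genes and do not start at 0. Mug1 and Mug2 separate the genotypes in both dyes, while for Serpina7 knockout mouse 3 at 9.88 lies below control mouse 2 at 9.97.

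Among clade A serpins, the hormone carriers had the highest fitted values. Serpina7 encodes thyroxine-binding globulin, a serpin that carries thyroid hormone and inhibits no protease, and it lies on chromosome X (135615848 to 135616502). Its control levels were 9.63, 9.97, 8.60 and 9.0 and its knockout levels 9.98, 10.21, 9.88 and 10.31. The knockout mice lay close together, and control mice 3 and 4 lay lowest. The ratios were 0.35, 0.24, 1.27 and 1.32. The fitted value was 0.80 ± 0.05, a 1.74-fold rise (adjusted p = 0.0480, limma), and it was the only one of the 47 to pass 0.05. The small SE reflects the close agreement of the arrays of one orientation, 0.35 with 0.24 and 1.27 with 1.32, and leaves out the gap between the orientations. Among mice labelled with Cy3, knockout minus control was 1.30, and among mice labelled with Cy5 it was 0.29. With no dye term the adjusted p was 0.184, with processed signals it was 0.0604, and no set of 3 arrays passed, with adjusted p-values of 0.0926 to 0.22.

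Serpina6 encodes corticosteroid-binding globulin, the carrier of glucocorticoids in plasma. Its probe at chromosome 12, 104884880 to 104884939, gave ratios of -0.14, 0.98, 0.73 and 0.90, and the probe at 104886817 to 104886876 gave -0.23, 0.82, 0.95 and 1.22. Replicates 2 to 4 were high and replicate 1 was just below 0 at both probes. The fitted values of 0.62 ± 0.20 and 0.69 ± 0.19 did not pass (adjusted p = 0.173 and 0.142, limma). The levels at the first probe were 14.56, 13.75, 14.53 and 13.68 in controls and 14.43, 14.73, 15.27 and 14.58 in knockouts, which overlap.

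Serpina5 encodes protein C inhibitor, which in the mouse is made mainly in the reproductive tract, and it was dim in these livers (105344174 to 105344233). Control levels were 7.23, 7.35, 6.98 and 7.55, and knockout levels were 7.04, 7.04, 6.37 and 6.67, and only control mouse 3 lay within the range of the knockouts. The ratios were -0.19, -0.31, -0.62 and -0.88, with a fitted value of -0.50 ± 0.07 (adjusted p = 0.0612, limma). From processed signals, which carry no offset, the value was -1.06.

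Serpina4-ps1, a pseudogene related to the kallistatin gene, had the widest spread of all members. Its 2 probes, at 105325068 to 105325127 and 105325060 to 105325119, overlap on the genome and share most of their bases. The first 30 bases they share are shown, with the base that differs in capitals, because both probes gave nearly the same values.
Serpina4-ps1, first probe: aaAtgggagagaccctcctagggtgtcaca
Serpina4-ps1, second probe: aaGtgggagagaccctcctagggtgtcaca
Of 52 aligned bases 51 were identical. The first probe gave 0.99, -0.41, -3.00 and -3.12 on replicates 1 to 4 and the second gave 1.03, -0.42, -3.05 and -3.01. The knockout signal was thus higher on replicate 1, slightly lower on replicate 2 and far lower on replicates 3 and 4. The fitted values of -1.39 ± 0.24 and -1.37 ± 0.25 (adjusted p = 0.0816 and 0.0870, limma) do not carry this split, and the SD over the arrays was 2.02 and 2.01. At the first probe knockout mouse 3 had the lowest level, 11.21, and control mouse 4 the highest, 16.33, and the other 6 mice lay between 13.21 and 14.68.

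Serpina9, a nearby gene best known from germinal centre B cells, was likewise above 0 on replicate 1 and lowest on replicates 3 and 4, with 0.61, -0.54, -2.18 and -1.39 (105234830 to 105234889) and a fitted value of -0.87 ± 0.24 (adjusted p = 0.145, limma). Serpina12, which encodes vaspin, lies between Serpina9 and Serpina4-ps1 and was well above background only in knockout mice 2 and 4.

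**Figure D3:**
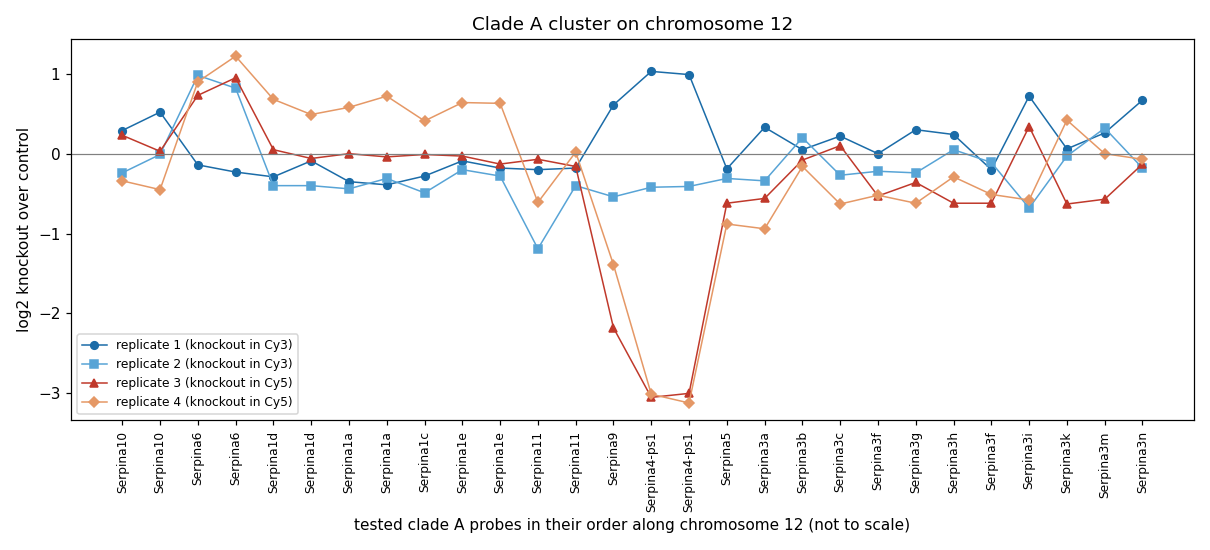
Log2 knockout over control on each array for the tested clade A probes on chromosome 12, in genomic order but not to scale. Serpina9 and Serpina4-ps1 lie far below 0 on replicates 3 and 4, down to -3.12, and above 0 on replicate 1. Of the next tested genes on either side, Serpina11 reaches -1.19 on replicate 2 at its first probe, and Serpina5 reaches -0.88 on replicate 4. On replicates 3 and 4 the first Serpina11 probe lies at -0.07 and -0.61 and the second at -0.16 and 0.02.

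Serpina10 encodes the protein Z-dependent protease inhibitor, which acts on coagulation factors, and its probes had fitted values of 0.02 and -0.01. For Serpina11, another clade A serpin, 2 probes at nearly the same place disagreed. The stretches that cover the differing bases, in capitals, show that they are not identical oligonucleotides.
Serpina11, first probe: ccccctgcaCggcaggaccccCgCgctGca
Serpina11, second probe: ccccctgcaTggcaggaccccTgTgctTca
They differed at 4 of 57 aligned bases. The first (105218462 to 105218521) gave -0.20, -1.19, -0.07 and -0.61 and the second (105218465 to 105218524) gave -0.18, -0.40, -0.16 and 0.02. The fitted values were -0.52 ± 0.20 and -0.18 ± 0.07, and neither passed (adjusted p = 0.226 and 0.218, limma). The probes differed mainly on replicates 2 and 4, and which of them follows the Serpina11 transcript was not tested.

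The Serpina1 genes encode alpha-1-antitrypsins, the plasma inhibitors of neutrophil elastase. Serpina1a, Serpina1c, Serpina1d and Serpina1e were tested with 7 probes, while Serpina1f was well above background only in both mice of replicates 1 and 4. The 7 fitted values lay between -0.09 and 0.08, with a median of -0.01, and 0 of them passed at either threshold in limma. Some of these probes name more than 1 of the genes in their accessions. A stretch of a Serpina1a probe and of the Serpina1c probe is shown, with the base that differs in capitals.
Serpina1a: taaAatgtcatccttccttctgaattgggt
Serpina1c: taaGatgtcatccttccttctgaattgggt
Of 51 aligned bases 50 were identical. The accessions of the Serpina1c probe also name Serpina1a and Serpina1b, and those of one Serpina1d probe also name Serpina1b. This Serpina1a probe (105091819 to 105091878) gave ratios of -0.35, -0.44, 0.00 and 0.58 and a fitted value of -0.05 ± 0.11. All 7 probes were below 0 on replicates 1 and 2 and above 0 on replicate 4. Their array medians were -0.28, -0.40, -0.03 and 0.63 after loess but 0.12, -0.05, -0.30 and 0.18 with processed signals, so the sign on replicate 1 depends on the scaling.

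The Serpina3 genes encode relatives of antichymotrypsin, and Serpina3n, an acute phase inhibitor of granzyme B and other proteases, is the one best known from inflammation. Of their 14 probes, 11 were tested, for Serpina3a, Serpina3b, Serpina3c, Serpina3f, Serpina3g, Serpina3h, Serpina3i, Serpina3k, Serpina3m and Serpina3n. Fitted values ran from -0.38 to 0.07 with a median of -0.14, and 8 of the 11 lay below 0. The array medians of 0.24, -0.18, -0.53 and -0.51 were below 0 on 3 arrays. Serpina3j was not well above background in any mouse.

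The 2 probes labelled Serpina3f had the lowest p-values of the group. The probe at 105492556 to 105492615 gave -0.20, -0.11, -0.62 and -0.51, with a fitted value of -0.36 ± 0.05 (adjusted p = 0.0632, limma). Its accessions also name Serpina3h, so the 2 genes cannot be told apart there. On the genome it lies next to the other Serpina3h probe, and the Serpina3g probe lies between it and the other Serpina3f probe. The probe at 105458989 to 105459048 gave 0.00, -0.22, -0.53 and -0.52 and -0.32 ± 0.06 (adjusted p = 0.0866, limma). Both probes were lower on replicates 3 and 4 than on replicates 1 and 2. At the second probe processed signals gave -0.65. The other Serpina3h probe (105491733 to 105491792) gave 0.24, 0.05, -0.62 and -0.29.

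Serpina3k, the brightest of the group, had a fitted value of -0.04 with -0.63 on replicate 3 and 0.42 on replicate 4. Serpina3n gave 0.67 on replicate 1 and -0.18, -0.13 and -0.07 on replicates 2 to 4, with a fitted value of 0.07 ± 0.15.

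Of the 31 clade B probes 7 were tested, for 6 of 27 genes, and 0 passed at an adjusted p of 0.1 in limma. Serpinb1a, which inhibits neutrophil elastase and cathepsin G, had the largest difference (chromosome 13, 32934693 to 32934752). Its ratios were -0.65, 1.39, 0.18 and 1.68 and its fitted value was 0.65 ± 0.43 (adjusted p = 0.429, limma). Control levels of 9.11, 8.07, 8.97 and 7.75 overlapped knockout levels of 8.46, 9.46, 9.15 and 9.43, and over the sets of 3 arrays the value ran from 0.14 to 1.16. Serpinb8, an inhibitor of furin, was the brightest clade B probe (chromosome 1, 109504865 to 109504924) and gave -0.33, -0.63, -0.34 and 0.10, with -0.30 ± 0.10 (adjusted p = 0.187, limma).

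Serpinb6a and both Serpinb6c probes, all intracellular inhibitors, lay within 0.11 of 0 as fitted values with an SD of 0.07 to 0.13 over the arrays. They were below 0 on all 4 arrays after loess, but their probes are near copies, as these stretches with the differing bases in capitals show.
Serpinb6a: tgcaatgGcaATtatgaaataaagggcttT
Serpinb6c: tgcaatgAcaGCtatgaaataaagggcttA
These probes shared 55 of 59 aligned bases, so they are not read as independent measurements. Whether each also binds the other gene's transcript was not tested. Serpinb6b gave 0.58, 0.43, -0.39 and 0.47. Serpinb9, a granzyme B inhibitor, had a fitted value of 0.12 ± 0.12. Among all 82 probes, 13 of 3321 pairs shared a run of at least 20 bases or at least 45 identical aligned bases, and 9 of these pairs joined different genes, among them Serpinb9f with Serpinb9g and Serpina3h with Serpina3i.

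The remaining clade B genes were not tested. Serpinb1b, Serpinb1c, Serpinb2, Serpinb3a, Serpinb3b, Serpinb3c, Serpinb3d, Serpinb6d, Serpinb6e, Serpinb7, Serpinb9b, Serpinb9c, Serpinb9d, Serpinb9e, Serpinb9f, Serpinb9g, Serpinb10-ps, Serpinb11, Serpinb12 and Serpinb13 were not well above background in any mouse. Serpinb5, known as maspin, was so only in both mice of replicate 2. In clade E, which had no tested probe, Serpine2, protease nexin, was well above background in both mice of replicate 3. In clade I, Serpini1, the neuroserpin of neurons, was not well above background in any mouse, and Serpini2, a pancreatic serpin, was so in knockout mice 1 and 3.

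The inhibitors of coagulation, fibrinolysis and complement and the collagen chaperone had fitted values within 0.15 of 0. Serpinc1, antithrombin (chromosome 1, 162932565 to 162932624), gave -0.47, -0.38, 0.45 and 0.65 and a fitted value of 0.06 ± 0.06. It was below 0 in one dye orientation and above 0 in the other. Serpind1, heparin cofactor II (chromosome 16, 17343544 to 17343603), gave -0.27, -0.10, 0.22 and 0.32 and 0.04 ± 0.06, with the same split. Serpinf2, the plasmin inhibitor alpha-2-antiplasmin (chromosome 11, 75245252 to 75245311), gave -0.34, -0.28, -0.09 and 0.27 and -0.11 ± 0.08. Serpinf1, the anti-angiogenic factor PEDF, had fitted values of 0.05 and 0.06. Serping1, the C1 inhibitor of complement and contact activation (chromosome 2, 84605663 to 84605722), gave 0.08, -0.14, -0.19 and -0.36 and -0.15 ± 0.07, and its second probe gave -0.14 ± 0.07. Serpinh1, the collagen chaperone HSP47 (chromosome 7, 106493971 to 106494030), gave 0.56, 0.16, -0.43 and -0.63, with a fitted value of -0.09 ± 0.09. None of these 6 genes passed, with adjusted p-values of 0.264 to 0.703 in limma.

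Genes that work with the inhibitors were read by their brightest tested probe. Of 19 tested target proteases 0 passed 0.05 in limma, and F11 and F7 were lower at 0.1, F11 with -0.30, -0.65, -1.28 and -0.78 (adjusted p = 0.068) and F7 with a fitted value of -0.32 ± 0.06 (adjusted p = 0.0962). The list median was -0.06. Of 20 other secreted inhibitors, Itih1 and Itih3, heavy chains of the inter-alpha-trypsin inhibitor, had adjusted p-values of 0.0816 and 0.1, with fitted values of -0.29 ± 0.05 and -0.50 ± 0.10 in limma. The list median was -0.04. Of 9 clearance receptors 0 passed at either threshold and the median was 0.00. Vldlr had the largest difference among them, 1.09 ± 0.34 (adjusted p = 0.168, limma). The 3 tested relatives in the thioester family, complement genes, lay below 0, with Hc at -0.66 ± 0.18 (adjusted p = 0.138, limma) and a median of -0.16.

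Acute phase genes had a median of -0.21 over 18 tested genes and 12 of them below 0. Their array medians were 0.3, -0.3, -0.23 and -0.23. Fga, the fibrinogen alpha chain, was the one at an adjusted p under 0.1, with -0.45 ± 0.08 (0.077, limma). Among 15 transcription factors of these promoters the median was 0.01, and Stat3, the mediator of the acute phase response, gave -0.43, -0.75, -0.33 and -0.32 with a fitted value of -0.46 ± 0.07 (adjusted p = 0.0709, limma). Of 14 collagens and collagen-folding partners of Serpinh1, Col5a3 rose by 2.44 ± 0.12 (adjusted p = 0.048, limma), and the median was 0.02.

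Genes with sex-biased expression in mouse liver were read beside the members. The 14 tested male-biased genes had array medians of 0.33, -0.53, -1.43 and -0.76, with 13 fitted values below 0 and a median of -0.57. The 10 tested female-biased genes had array medians of -0.57, 1.20, 0.84 and 1.27, with all 10 fitted values above 0 and a median of 0.80. At an adjusted p under 0.1 limma called 2 male-biased genes lower and 2 female-biased genes higher. Serpina4-ps1 and Serpina9 were above 0 on the same array as the male-biased genes, and Serpina6 and Serpinb1a were below 0 on the same array as the female-biased genes. Other members, among them Serpina3g, Serping1 and the tested Serpina3a probe, were also above 0 on replicate 1 only. So was the median of the acute phase genes. Mug1, Mug2, Serpina5 and Serpina7 had the same sign on all 4 arrays. The part of sex-biased expression in these values was not tested.

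Markers of other cells were read beside the members. Pancreatic acinar markers, 13 of 14 tested, had array medians of 4.23, -2.64, -0.16 and -1.05, and their part in the values of Serpini2, Serpina4-ps1 or any other member was not tested. Hepatocyte markers had array medians of -0.29, -0.22, 0.15 and 0.32, with a list median of 0.02. Alb was the 1 called higher at an adjusted p under 0.1, with 0.44 ± 0.06 (0.0596, limma). Its ratios were -0.44, -0.24, 1.2 and 1.24. Pck1 had the largest difference, -0.94 ± 0.22 (adjusted p = 0.115, limma). Biliary markers had a list median of 0.28, with 6 of 7 above 0 and 3 called higher at an adjusted p under 0.1, among them Tspan8 at 0.67 ± 0.05 (adjusted p = 0.0505, limma) and Krt19 at 0.64 ± 0.08 (adjusted p = 0.0583, limma). Their part in the values of the members was not tested. The list medians of stellate, endothelial, macrophage, neutrophil and lymphocyte markers lay between -0.07 and 0.07. The 2 tested adipocyte markers had a median of -0.18, and 4 mesothelial and squamous markers one of 0.05.

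**Figure D4:**
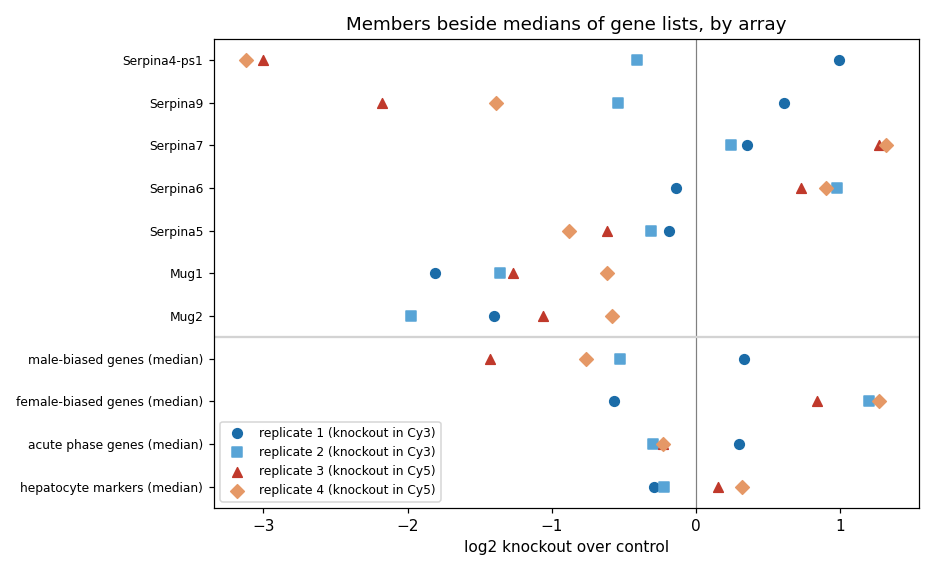
Log2 knockout over control on each array for 7 member genes (first probe each) and, below the line, the median of 4 gene lists. Mug1 and Mug2 lie below 0 on all 4 arrays. Serpina4-ps1, Serpina9, the male-biased median (0.33) and the acute phase median (0.3) lie above 0 on replicate 1 only.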

How the data were processed

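Total liver RNA of 8 mice was hybridised to 4 two-colour arrays. Per the file headers, Agilent Feature Extraction 10.7.3.1 wrote the deposited intensity values: per spot and dye the mean signal, the local background and the processed signal, which the software had background-subtracted and dye-normalized. The deposited log10 ratios, processed Cy5 over Cy3, were read only to check direction. The authors' deposited table of log2 ratios lay within 0.0001 of log2 knockout over control from processed signals at all 43020 non-control spots of each array, with column medians of -0.05, 0.14, -0.18 and -0.18.

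Mean signals were corrected with normexp (offset 50) in limma 3.58.1 under R 4.3.3. Its parameters were fitted without spots marked for non-uniformity, because over all spots replicate 1 gave background means of -273 (Cy3) and -185 (Cy5), against 4.07 and -12.2 without them. Loess followed, with control spots at weight 0. Outlier spots (194 to 230 per array) were left out, 0 spots were saturated, and spots of a probe were averaged. The unit of the fit was the array ratio, with a dye intercept. Tests were two-sided. All arrays shared 1 slide. The code was tested on simulated data. The number of arrays limits the precision.

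Members, lists and thresholds were chosen with earlier results of these data known. Array values are given for A2M family probes, probes at an adjusted p under 0.1, and per clade the largest change and the brightest probe. Of each list up to 2 genes are named. The values of 1 untested member gene are not reported here. Serpina6, Serpina9, Serpina11, Serpina3h, Serpina3k, Serpina3n and Serpinb6b were added after their values were seen. Of 82 probes 79 matched a RefSeq accession, and 5 of these name several genes. Transcript and protein sequences were not used here, so probes were compared only with each other. Tables were loaded through data.table (version 1.17.8) and plots made in matplotlib 3.10.9. The alternatives changed the background correction, scaling, dye term, unit, filter, probes per gene, variance prior and arrays.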

Additional observations from a re-analysis of the deposited data

Results flagged for a closer look

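At 3 of the 47 tested probes 1 array stood apart from the other 3 by Dixon's criterion, which chance meets in about 1 of 20 groups. One Serpina1e probe was highest on replicate 4 at 0.63, with the others between -0.28 and -0.13. With processed signals its values were 0.26, 0.11, -0.44 and 0.18, and replicate 4 did not stand apart. Serpina3n was highest on replicate 1 at 0.67, with the others between -0.18 and -0.07. Serpinb6b was lowest on replicate 3 at -0.39, with the others between 0.43 and 0.58.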

How the results depend on the processing

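Serpina7, the 1 member called higher at 0.05, was not called (0 higher) with normexp over all spots, processed signals, no dye term, 1 probe per gene or any array left out (0 to 0). Members called lower at 0.05 numbered 3 with median centring, 5 with separate channels, 4 with no filter and 3 with a trended and robust variance. At 0.1, 0 were higher with no dye term and 3 with separate channels, and 0 to 3 with an array left out; 1 was lower with no dye term, and 0 to 3 with an array left out. Of all tested probes 36 were called at 0.05, and the alternatives gave 0 (normexp over all spots), 153 (no background correction), 10 (processed signals), 330 (median centring), 64 (no dye term), 3658 (separate channels), 504 (no filter), 0 (1 probe per gene), 764 (trended and robust) and 0 to 0 with an array left out. At 0.1 the count of 1402 became 787, 363, 5502, 906 and 2262 with normexp over all spots, no dye term, separate channels, 1 probe per gene and a trended and robust variance, and 0 to 204 with an array left out. The share of these calls above 0 was 60.1%, and 73.8% with median centring. The Ppp1r8 probes passed 0.05 with no background correction (-0.74 and -0.71) and with median centring, no dye term, separate channels, no filter and a trended and robust variance (-0.68 and -0.65 in each). With an array left out, 3 signs turned: Serpina1a ran from -0.2 to 0.09 (above 0 without replicate 3), Serpind1 from -0.002 to 0.08 (below 0 without replicate 2) and Serpinh1 from -0.19 to 0.02 (above 0 without replicate 2). The fits with 3 arrays have 1 residual degree of freedom before the shared prior. Other causes of these shifts were not tested. Serpina5 (average log2 intensity 7.03) and the dimmer Serpina3f probe (6.96) had larger differences with processed signals, -1.06 against -0.50 and -0.65 against -0.32. So did both Ppp1r8 probes, and the other Serpina3f probe moved less, from -0.36 to -0.44. The part of signal over background in this was not tested.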
